A study of Mus musculus with 8 samples.

Results

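Class I antigen processing genes were described across mouse embryonic fibroblasts that lacked Daxx or had Daxx put back. The 10 genes, chosen by symbol from the platform annotation, were the immunoproteasome subunits Psmb8, Psmb9 and Psmb10, the peptide transporter genes Tap1 and Tap2, the loading factor Tapbp, the peptidase Erap1, the light chain B2m, the class I-like chain H2-M3 and the transcriptional activator Nlrc5. They were 10 of 19938 genes with a probe set of their own, and all 10 were measured and tested. Earlier results of these data were known when the genes were chosen, so shares of all genes given beside their counts only describe. Every array came from Daxx knockout fibroblasts of the FVB/N background. The vector group (4 arrays) carried an empty vector, and DaxxA and DaxxB (2 arrays each) carried Daxx. The labels give no meaning for A and B, name no promoter, clone or interferon treatment, and do not say whether the arrays of a group came from separate cultures, so p-values measure only the spread between these arrays, which may be technical. The comparison asked which genes depend on Daxx, a histone chaperone and transcriptional regulator.

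Class I molecules show fragments of a cell's own proteins to cytotoxic T cells. The proteasome cuts proteins, with the immunoproteasome subunits taking the place of the constitutive catalytic subunits. The transporter formed by Tap1 and Tap2 carries the fragments into the endoplasmic reticulum, where Erap1 trims them and tapasin, the product of Tapbp, helps to load them onto a heavy chain bound to B2m. Interferons raise most of these genes, and Nlrc5 is a coactivator of their promoters.

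The promoters of Tap1, Psmb8 and H2-M3, which separated the arrays, and that of B2m are shown first. Tap2 separated the arrays too, but no promoter was available for it. Tap1 and Psmb9 gave different calls from a shared stretch, and Psmb8 and H2-M3 were called in opposite directions. The printed stretches come from RefSeq (GRCm38.p6, C57BL/6J), which is not the strain of these cells. Each ends at the base before the annotated start. Psmb9 and Tap1 lie head to head, and the first sequence is all 225 bases between their starts, chr17:34187331-34187555, read on the Tap1 (plus) strand. The Psmb8 stretch is chr17:34198045-34198194, the H2-M3 stretch chr17:37270019-37270233 and the B2m stretch chr2:122147512-122147686, all on the plus strand. Capitals mark the motifs searched, on either strand.
Tap1-Psmb9: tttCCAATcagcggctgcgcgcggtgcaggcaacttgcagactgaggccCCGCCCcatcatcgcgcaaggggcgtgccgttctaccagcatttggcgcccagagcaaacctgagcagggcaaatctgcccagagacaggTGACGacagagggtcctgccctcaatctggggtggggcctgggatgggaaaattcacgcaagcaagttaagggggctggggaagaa
Psmb8: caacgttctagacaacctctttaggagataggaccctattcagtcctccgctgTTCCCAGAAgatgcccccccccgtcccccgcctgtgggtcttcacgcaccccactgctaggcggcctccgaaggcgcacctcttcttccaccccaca
H2-M3: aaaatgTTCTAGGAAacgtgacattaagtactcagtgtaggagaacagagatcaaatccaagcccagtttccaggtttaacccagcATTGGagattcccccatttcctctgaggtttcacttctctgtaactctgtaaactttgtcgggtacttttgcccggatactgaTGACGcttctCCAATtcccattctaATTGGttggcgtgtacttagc
B2m: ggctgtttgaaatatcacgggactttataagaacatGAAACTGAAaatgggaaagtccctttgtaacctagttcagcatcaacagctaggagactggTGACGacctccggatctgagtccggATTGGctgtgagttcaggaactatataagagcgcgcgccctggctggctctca

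The motifs were searched in windows from 250 bases before to 50 after each start, which the table held for 8 of the 10 genes (not Tap2 and Nlrc5). The interferon regulatory factor element GAAANNGAA was found in B2m (GAAACTGAA, from -139 to -131) and, in 2 overlapping copies on the opposite strand at its start, in Erap1. It was in 8.56% of the 32851 windows of all genes. The gamma activated site TTCNNNGAA was found in Psmb8 (TTCCCAGAA, from -97 to -89) and H2-M3 (TTCTAGGAA, from -209 to -201), and in 8.3% of all windows. CCAAT, the box bound by NF-Y, was in 5 of 8 windows (37.4% of all) and the GC box GGGCGG in 4 of 8 (35.7% of all). Neither TGACGT nor the NF-kB form GGGNNTTCC was in any of the 8 windows (7.51% and 5.82% of all). The shorter core TGACG, added after the sequences were seen because the X box of class I promoters holds such a core, was in Tap1, Psmb9, H2-M3 and B2m, 4 of 8, and in 20.8% of all windows. The Tap1 and Psmb9 windows overlap and share that copy, the CCAAT box and the GC box. These matches describe letters in a window and are not shown to be bound sites.

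The values were log2 signals made with RMA by the submitters, and the median over all genes ran from 6.95 to 7.06 between arrays. Vector replicate 2 stood apart. Its interquartile range was 2.79 against 3.31 to 3.39 in the other 7 arrays, its mean correlation with the others was 0.969, and its median over 1027 olfactory receptor genes, a stand-in for background, was 5.21 against 4.65 to 4.70. Values are from all 8 arrays unless 7 are named. Those of 7 arrays are added where leaving out that array changed a call or the sign of a named gene's difference from vector. This was not done for single markers, Ifit1 and the genes most like Tap1 and H2-M3. The Daxx probe set read 7.34, 6.85, 7.27 and 7.16 in the vector arrays, 7.35 and 7.36 in DaxxA and 7.46 and 7.23 in DaxxB. These groups overlapped (exact two-sided permutation p = 0.143, with 0.0286 the smallest that 4 against 4 arrays allow), so the conditions rest on the labels. Neither the labels nor the files say which part of Daxx these probes cover. Of the 10 fibroblast markers, 9 lay above 99% of the olfactory receptor genes and Fap above 56.4%. The mean of the 10 ranged from 9.28 to 9.33 with vector and from 8.92 to 9.06 with Daxx. Dcn, Pdgfra and Pdgfrb were lower, Col1a2 was higher and 6 did not pass, where 4.52% of all genes were called. With 7 arrays 4 were lower (7.57% of all genes) and 1 was higher (5.26% of all genes). The part of that shift in the results below was not tested. Among 9 measured leukocyte and macrophage markers 0 were called, none with an unadjusted p below 0.05 in limma. The difference was below 0 for 6 of the 9 with 8 arrays and for 2 of the 9 with 7. Their mean ranged from 5.72 to 5.93 with vector and from 5.72 to 5.82 with Daxx. Ptprc, the pan-leukocyte marker, averaged 5.50 and 5.42, above 86.5% of the olfactory receptor genes, and Cd68, a lysosomal marker of macrophages, averaged 7.24 and 7.39, above 99.4%. In bulk RNA, fewer cells that use a gene and less of its RNA in each cell cannot be told apart.

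With Daxx, 3 of the genes were lower, 1 was higher and 6 did not pass. The transporter genes Tap1 and Tap2 and the immunoproteasome gene Psmb8 fell, H2-M3 rose, and all 4 differences were small, from 1.18-fold to 1.4-fold. Called here means an adjusted p below 0.05 in limma (Benjamini-Hochberg over the 19938 genes), a threshold that 4.52% of all genes passed, 2.73% lower and 1.8% higher. Without vector replicate 2, 4 of the 10 were lower (7.57% of all genes) and 1 was higher (5.26% of all genes). Of the 10, 9 had a difference below 0 with a median of -0.13, where 58.2% of all genes were below 0 with a median of -0.03. The Daxx values lay wholly below the vector values for 3 of the 10 (6.79% of all genes) and wholly above for 1 of the 10 (8.02% of all genes). Each signal lay above at least 99.4% of the olfactory receptor genes.

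**Figure D1:**
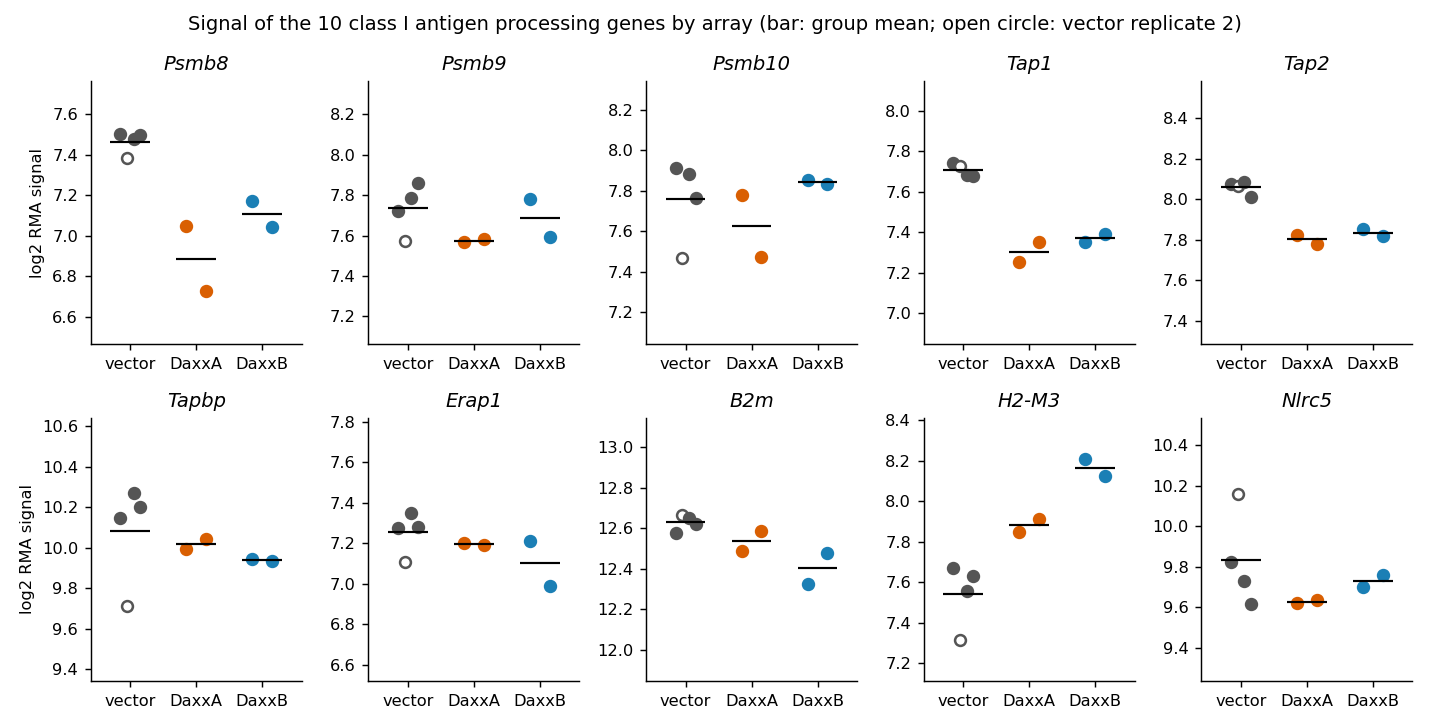
Log2 RMA signal of each of the 10 genes on every array, with vector, DaxxA and DaxxB on the horizontal axis, a bar at each group's mean and an open circle for vector replicate 2. Every panel spans the same height in log2 units. Tap1, Tap2 and Psmb8 have all Daxx points below all vector points, H2-M3 has them above, and the open circle is the lowest vector point in 6 panels and the highest in those of B2m and Nlrc5.

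Tap1, which encodes one chain of the peptide transporter, read 7.74, 7.73, 7.68 and 7.68 in the vector arrays, 7.25 and 7.35 in DaxxA and 7.35 and 7.39 in DaxxB. The groups did not overlap, and vector replicate 2 lay among the other vector arrays. The signal fell by 0.37 on the log2 scale (SE 0.052, 95% interval from -0.49 to -0.25, 1.29-fold, limma adjusted p = 0.00451). Only 1.32% of all genes had a smaller p. Tap1 was the one member called whichever single array was left out, with adjusted p-values from 0.000567 to 0.0252.

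Tap2, the other chain of the transporter, read 8.07, 8.06, 8.09 and 8.01 in the vector arrays, 7.82 and 7.78 in DaxxA and 7.85 and 7.82 in DaxxB. The groups did not overlap, and the spread was as narrow as for Tap1 (SD 0.034 in vector and 0.029 in Daxx, n = 4 each). The signal fell by 0.24 (SE 0.047, interval from -0.35 to -0.13, 1.18-fold, limma adjusted p = 0.0244). The call was kept without vector replicate 2 or 4. It was lost without vector replicate 1 (adjusted p = 0.0952), vector replicate 3 (0.0987), DaxxA replicate 1 (0.082) or 2 (0.0761), or DaxxB replicate 1 (0.0621) or 2 (0.0897).

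Tapbp encodes tapasin, which holds the empty class I molecule at the transporter. It read 10.14, 9.71, 10.27 and 10.20 in the vector arrays, 9.99 and 10.04 in DaxxA and 9.94 and 9.94 in DaxxB. Vector replicate 2 was the lowest of the 8 arrays, and the other vector arrays all lay above the Daxx arrays. With 8 arrays the difference was -0.10 (SE 0.115, interval from -0.37 to 0.16, limma adjusted p = 0.712). Without vector replicate 2 it was -0.23 (interval from -0.34 to -0.12, limma adjusted p = 0.0111), so that array decides whether Tapbp counts as lower. A further 2 probe sets that list Tapbp together with Rps3a1 were not used.

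Psmb8 is the immunoproteasome subunit that replaces Psmb5. It read 7.50, 7.38, 7.48 and 7.50 in the vector arrays, 7.05 and 6.73 in DaxxA and 7.17 and 7.04 in DaxxB. All Daxx arrays were lower, with more spread among them (SD 0.19) than among the vector arrays (SD 0.056, n = 4 each). The fall of 0.47 (SE 0.093, interval from -0.68 to -0.26, 1.38-fold, limma adjusted p = 0.0259) kept its size, between 0.38 and 0.53, whichever array was left out. Its call was lost without vector replicate 1 (adjusted p = 0.087), 3 (0.0854) or 4 (0.0727), DaxxA replicate 1 (0.0718) or DaxxB replicate 2 (0.0775). It stood at 0.50 without vector replicate 2 (adjusted p = 0.00394).

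The other immunoproteasome subunits did not pass. Psmb9, which replaces Psmb6, read 7.72, 7.57, 7.78 and 7.86 in the vector arrays, 7.57 and 7.58 in DaxxA and 7.78 and 7.59 in DaxxB. The groups overlapped with or without vector replicate 2. The difference was -0.10 with 8 arrays (interval from -0.28 to 0.07, limma adjusted p = 0.635) and -0.16 with 7 (interval from -0.29 to -0.02, adjusted p = 0.136). Psmb9 shares the 225 bases printed above with Tap1. Whether the differences of Psmb9 and Tap1 differ from each other was not tested. Psmb10, which replaces Psmb7, read 7.91, 7.47, 7.89 and 7.77 in the vector arrays, 7.78 and 7.47 in DaxxA and 7.85 and 7.83 in DaxxB. One vector and one DaxxA array shared the low value, and the difference was -0.02 with 8 arrays (interval from -0.30 to 0.25, limma adjusted p = 0.932) and -0.12 with 7 (interval from -0.31 to 0.07, adjusted p = 0.451).

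Erap1, the aminopeptidase that trims peptides in the endoplasmic reticulum, read 7.28, 7.11, 7.35 and 7.28 in the vector arrays, 7.20 and 7.19 in DaxxA and 7.21 and 6.99 in DaxxB. Only vector replicate 2 lay among the Daxx arrays. The difference was -0.11 with 8 arrays (interval from -0.28 to 0.07, limma adjusted p = 0.61) and -0.15 with 7 (interval from -0.29 to -0.02, limma adjusted p = 0.136).

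B2m, the light chain of every classical class I molecule, read 12.58, 12.67, 12.65 and 12.62 in the vector arrays, 12.49 and 12.59 in DaxxA and 12.33 and 12.48 in DaxxB. One DaxxA array lay within the vector range and the other Daxx arrays below it. The difference of -0.16 had an interval from -0.30 to -0.01, an unadjusted p of 0.0363 and a limma adjusted p of 0.273. Vector replicate 2 made little difference (-0.15, adjusted p = 0.159).

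H2-M3 was the one member that rose. It is a class I-like chain that presents peptides with a formylated start, as bacteria and mitochondria make them. It read 7.67, 7.31, 7.56 and 7.63 in the vector arrays, 7.85 and 7.91 in DaxxA and 8.21 and 8.12 in DaxxB. Each group stood clear of the next, with DaxxB highest. The rise was 0.48 (SE 0.106, interval from 0.24 to 0.72, 1.4-fold, limma adjusted p = 0.0398), and 0.40 (1.32-fold, adjusted p = 0.00876) without vector replicate 2, the lowest vector array. Leaving out any other single array ended the call (adjusted p = 0.0711, 0.109 and 0.073 without vector replicates 1, 3 and 4, 0.0547 and 0.076 without DaxxA replicates 1 and 2, and 0.119 and 0.136 without DaxxB replicates 1 and 2).

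**Figure D2:**
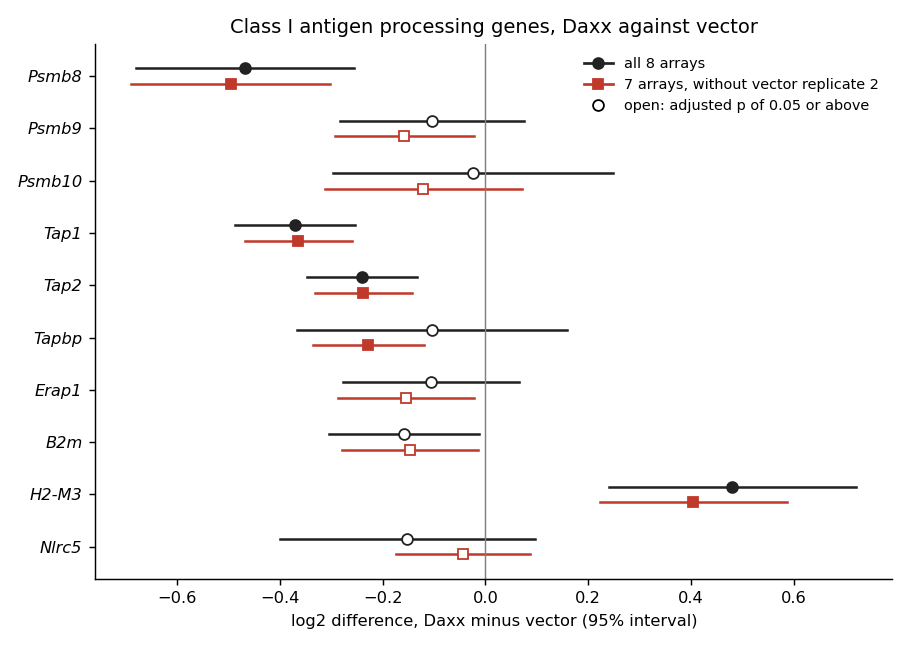
Log2 difference between the 4 Daxx and the 4 vector arrays for each gene with its 95% interval, in black for all 8 arrays and in red for 7 arrays without vector replicate 2. Filled symbols have an adjusted p below 0.05. Tap1, Tap2 and Psmb8 lie to the left of 0 and H2-M3 to the right in both, and Tapbp is filled with 7 arrays alone.

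Nlrc5, the coactivator that drives class I promoters, was represented by 19 probe sets, and the choice among them matters. The one with the highest mean, which stood for the gene, read 9.82, 10.16, 9.73 and 9.61 in the vector arrays, 9.62 and 9.64 in DaxxA and 9.70 and 9.76 in DaxxB. Vector replicate 2 was the highest array and the other vector arrays overlapped the Daxx arrays. The difference was -0.15 (interval from -0.40 to 0.10, limma adjusted p = 0.615), and -0.04 without that array (adjusted p = 0.721).

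Over the 19 probe sets of Nlrc5 the differences ran from -0.26 to 0.11 with a median of -0.16, and 15 were below 0. When all 35556 probe sets were tested together 0 of the 19 were called, where 1.9% of all probe sets were, and 2 of the 19 had an unadjusted p below 0.05 in limma. Vector replicate 2 was the highest vector array in 10 probe sets, the lowest in 7 and within the others in 2. Without it the median was -0.08, 15 were again below 0, and 3 were called, all lower. Of all probe sets 5.62% were then called, in either direction. The 3 were the second by mean signal (-0.36, limma adjusted p = 0.0462), the third (-0.31, adjusted p = 0.0166) and the fifteenth (-0.33, adjusted p = 0.0215). The eleventh was the only 1 of the 19 with every Daxx array below all 4 vector arrays. Its difference was -0.25 with 8 arrays (interval from -0.40 to -0.10, limma adjusted p = 0.117) and -0.23 with 7 (adjusted p = 0.0668). The third read 8.34, 7.85, 8.20 and 8.16 in the vector arrays and 7.90, 7.92, 7.95 and 7.94 in the Daxx arrays. There the 3 other vector arrays lay above every Daxx array and vector replicate 2 below. The exons that these probe sets cover were not examined.

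**Figure D3:**
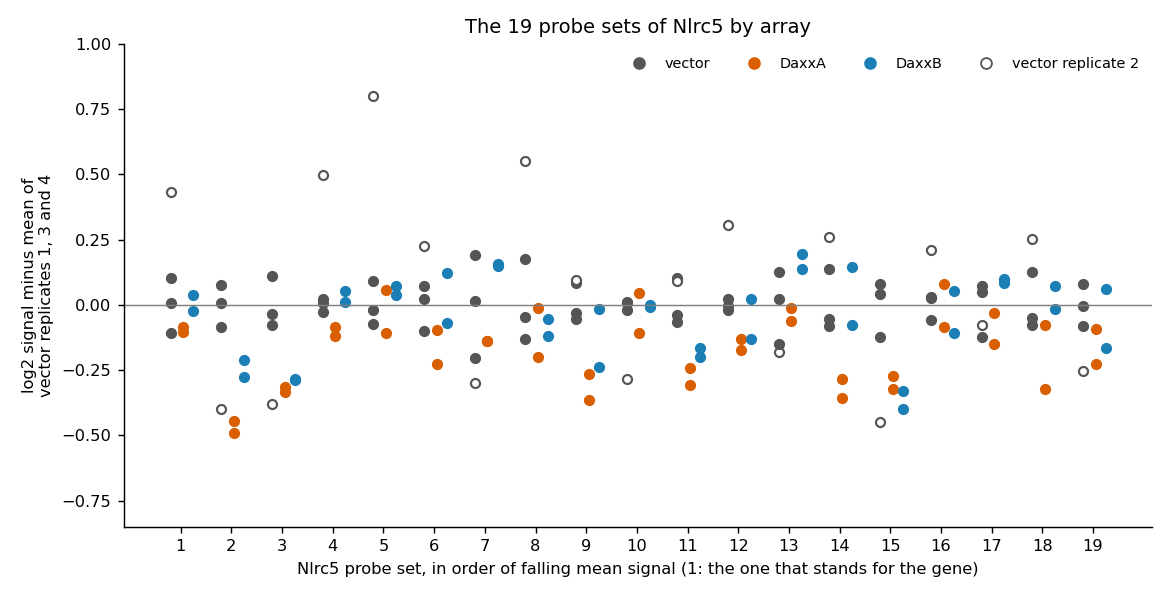
Signal of the 19 Nlrc5 probe sets on each array, as a log2 difference from the mean of vector replicates 1, 3 and 4, with probe sets in order of falling mean. Probe sets 2, 3, 11 and 15 have all Daxx points below the 3 filled vector points, whereas the open circle of vector replicate 2 lies above the filled vector points in 10 probe sets and below them in 7.

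DaxxA and DaxxB were then set against the vector arrays one at a time, in a fit of 3 groups with a shared spread. Both comparisons use the same vector arrays, so their likeness is not independent. In DaxxA, Tap1 (-0.40, adjusted p = 0.0195) and Psmb8 (-0.58, adjusted p = 0.0344) were called, 2 of 10 where 1.97% of all genes were. In DaxxB, Tap1 (-0.34, adjusted p = 0.033) and H2-M3 (0.62, adjusted p = 0.0264) were called, 2 of 10 where 2.69% of all genes were. Tap2 gave -0.26 in DaxxA (limma adjusted p = 0.0882) and -0.22 in DaxxB (adjusted p = 0.107). Psmb8 gave -0.36 in DaxxB (adjusted p = 0.138) and H2-M3 gave 0.34 in DaxxA (adjusted p = 0.231). B2m gave -0.09 in DaxxA and -0.23 in DaxxB, and neither passed.

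Without vector replicate 2 the calls were 5 in DaxxA (11.3% of all genes) and 7 in DaxxB (20.5% of all genes). Both then held Tap1, Tap2, Tapbp, Psmb8 and H2-M3, and DaxxB also Erap1 (-0.20, limma adjusted p = 0.0498) and B2m (-0.21, adjusted p = 0.0283). Leaving out any other single array left 0 members called in either. The difference between DaxxA and DaxxB was called for 0 of the 10 in limma, as for 0% of all genes. At an unadjusted p below 0.05 it held for 846 of the 19938 genes and for 1 of the 10, H2-M3, with -0.29 (interval from -0.57 to -0.003, unadjusted p = 0.0484). Without vector replicate 2 that difference of -0.29 had an interval from -0.42 to -0.15 and was called (limma adjusted p = 0.0409), where 2.15% of all genes were. With 8 arrays the interval of DaxxA minus DaxxB ran from -0.49 to 0.05 for Psmb8 and from -0.23 to 0.09 for Tap1. Both intervals include 0. Without vector replicate 2 the interval of Psmb8 ran from -0.42 to -0.022 (limma adjusted p = 0.188). That of Psmb10 then ran from -0.416 to -0.017 (limma adjusted p = 0.195). These intervals exclude 0, but neither gene was called, and the interval of Tap1 (-0.19 to 0.06) still included 0.

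**Figure D4:**
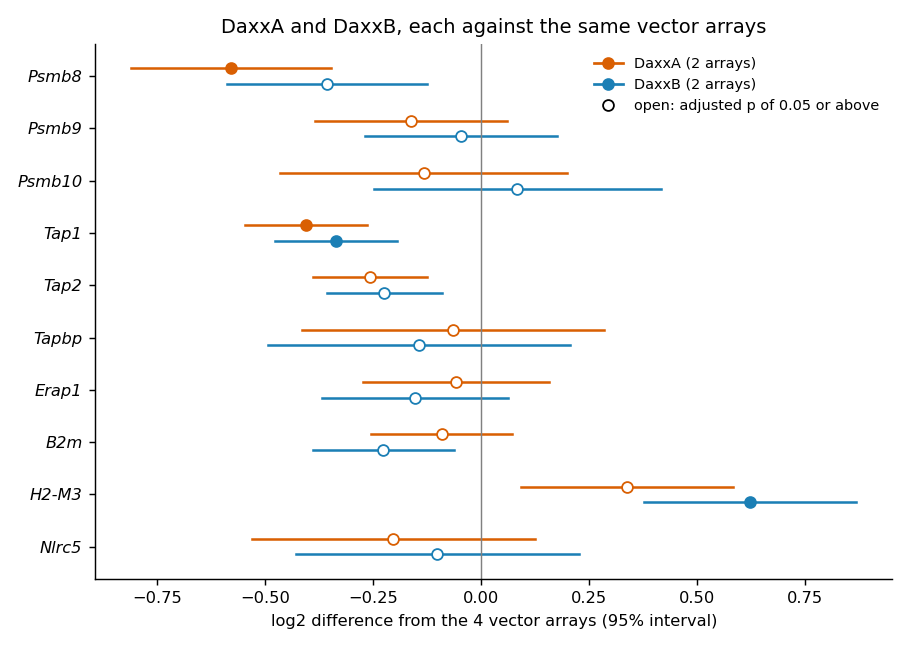
Log2 difference of DaxxA (orange) and of DaxxB (blue) from the same 4 vector arrays, with 95% intervals, for each gene. Filled symbols have an adjusted p below 0.05 and are Tap1 and Psmb8 in DaxxA and Tap1 and H2-M3 in DaxxB.

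Of the 10 genes, 6 lie on chromosome 17 with Daxx itself, by the GRCm38.p6 gene order. Tapbp lies close to Daxx, with Zbtb22 the only protein-coding gene between. Psmb9, Tap1, Psmb8 and Tap2 follow one another with no gene between. Of these 4 neighbours, Tap1, Psmb8 and Tap2 were called lower and Psmb9 was not. The 3 measured protein-coding genes before that run (H2-Oa, Brd2 and H2-DMa) and the 3 after it (H2-Ob, H2-Ab1 and H2-Aa) gave differences from -0.18 (H2-Aa) to 0.13 (H2-DMa), and 0 were called (limma adjusted p from 0.573 to 0.987, unadjusted p from 0.162 to 0.969). With 7 arrays they ran from -0.11 to 0.06, and the signs of H2-Aa (0.01), H2-DMa (-0.11) and H2-Ob (0.05) turned. Around Daxx and Tapbp, the ribosomal protein gene Rps28 rose by 0.36 (limma adjusted p = 0.0152). Rps28 was the one called gene of 7 examined there with all 8 arrays, where 4.52% of all genes were called. The other 6, Ndufa7 (0.31, adjusted p = 0.0559), Pfdn6 (0.21), Cd320 (0.21), Rgl2 (0.09), Zbtb22 (0.06) and Wdr46 (0.01), did not pass. With 7 arrays Ndufa7 was called too (0.26, adjusted p = 0.0169), and Cd320 gave 0.04, Zbtb22 0.18 and Rgl2 a value at 0. These neighbours were chosen by place, after the members' values were seen.

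The rest of the class I pathway was taken as a list of 94 genes, of which 79 were measured with a probe set of their own. The list also holds 8 class II presentation genes as a control group, 7 of them measured. The counts below include that group, and Cd74, 1 of the 2 genes called higher, belongs to it. The heavy chain genes H2-K1 and H2-D1 were among the 15 not analysed here. Of the 79, 5 were lower and 2 higher, together 8.86% where 4.52% of all genes were called, and 72 did not pass, with a median of -0.001 and 50.6% below 0. Without vector replicate 2, 9 of the 79 were lower (7.57% of all genes) and 4 higher (5.26% of all genes). The count was 2 or 3 when any other single array was left out, where 446 to 559 of all 19938 genes were called.

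**Figure D5:**
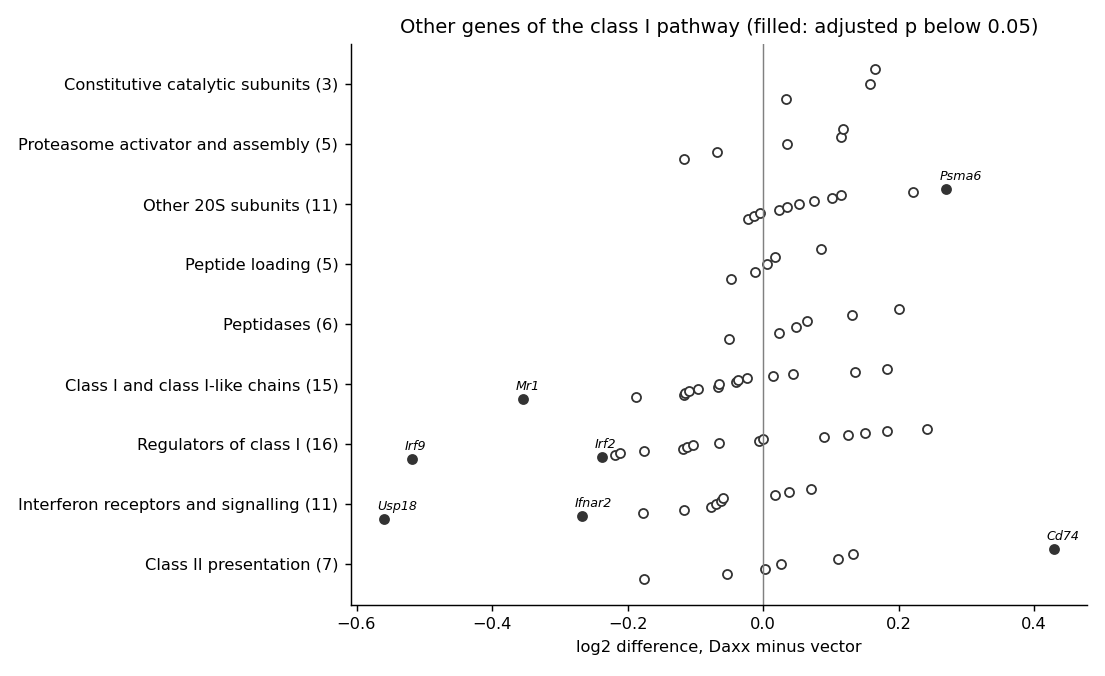
Log2 difference, Daxx minus vector, of the 79 other genes of the pathway list in 9 groups, with 1 point for each gene. Class II presentation, which holds Cd74, is a control group. Filled points have an adjusted p below 0.05. The 7 filled points are Psma6 and Cd74 to the right of 0 and Mr1, Irf9, Irf2, Usp18 and Ifnar2 to the left.

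None of the genes for the constitutive proteasome was called lower. The catalytic subunits that the immunoproteasome replaces, Psmb5 (0.03), Psmb6 (0.16) and Psmb7 (0.17), gave values above 0 and did not pass (limma adjusted p from 0.134 to 0.828, unadjusted p below 0.05 for 2 of the 3). Of 11 other core subunits 1 rose (1.8% of all genes), Psma6, an alpha-ring subunit (0.27, SE 0.061, adjusted p = 0.0427). Psmb1 gave 0.22 (adjusted p = 0.0952). With 7 arrays Psmb1 gave 0.19 and was called (adjusted p = 0.0396), where 5.26% of all genes were called higher. Of the 5 activator and assembly genes 0 were called in limma, with 0 at an unadjusted p below 0.05. Psme3 gave -0.12 (limma adjusted p = 0.337) and Psme4 gave 0.12 (adjusted p = 0.453). Pomp, an assembly chaperone, gave 0.11, and Psme1, which interferon raises, gave -0.07. The loading factors Calr (-0.01), Canx (0.02), Pdia3 (-0.05) and Hspa5 (0.09), chaperones of the endoplasmic reticulum, were not called either, with 0 at an unadjusted p below 0.05. Of 6 peptidases 0 were called in limma, and 1 had an unadjusted p below 0.05, Blmh at 0.20 (adjusted p = 0.277).

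Among class I and class I-like chains 1 of 15 was called, 6.67% where 4.52% of all genes were. Mr1, which presents vitamin metabolites of microbes, read 10.12, 10.17, 10.11 and 10.11 in the vector arrays, 9.81 and 9.73 in DaxxA and 9.81 and 9.74 in DaxxB. The groups did not overlap, and the fall of 0.35 (SE 0.048, 1.28-fold, limma adjusted p = 0.00394) had the direction of Tap1 and not that of H2-M3. H2-T24 gave -0.19 (adjusted p = 0.49), H2-T10 gave -0.10 (adjusted p = 0.58) and H2-M2 gave 0.18 (adjusted p = 0.37). With 7 arrays 3 of the 15 were called, since H2-M2 was higher (0.26, adjusted p = 0.0168) and H2-Q4 lower (-0.19, adjusted p = 0.0467). Of all genes 7.57% were then called lower and 5.26% higher. The H2 genes resemble one another in sequence, so their identity on the array is uncertain, and the list also holds H2-Ke6, an enzyme gene named for its place.

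Of 16 regulators of class I, 2 fell (2.73% of all genes) and 0 rose (1.8% of all genes). Irf9, the DNA-binding subunit of the interferon transcription factor complex, read 8.52, 8.23, 8.51 and 8.42 in the vector arrays, 7.94 and 7.78 in DaxxA and 7.89 and 7.99 in DaxxB, a fall of 0.52 (1.43-fold, limma adjusted p = 0.00805). Irf2, a further interferon regulatory factor, fell by 0.24 (adjusted p = 0.0421). Irf1, which activates class I promoters after interferon, gave 0.18 (adjusted p = 0.315), and Irf7 gave -0.001 (adjusted p = 0.996), or 0.08 with 7 arrays. Stat3 gave -0.22 (adjusted p = 0.123) and Nfya -0.18 (adjusted p = 0.293). With 7 arrays 5 of the 16 fell (7.57% of all genes). Stat3 (-0.27, adjusted p = 0.00348), Stat2 (-0.30, adjusted p = 0.00197) and Rfx5 (-0.30, adjusted p = 0.0282) were then called as well.

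Of 11 interferon receptor and signalling genes, 2 fell (2.73% of all genes). Usp18, which restrains the type I receptor and is itself induced by interferon, fell by 0.56 (1.47-fold, limma adjusted p = 0.0408), and Ifnar2, a chain of that receptor, by 0.27 (adjusted p = 0.0491). Socs3 (-0.18) and Tyk2 (-0.12) did not pass. The interferon-induced gene Ifit1 read 7.53, 6.97, 7.56 and 7.66 with vector and lay between 6.22 and 6.38 in all arrays with Daxx (a difference of -1.15, limma adjusted p = 0.00219). That difference is larger than any of the 10 genes gave. It serves only as a reference, since it was already known from these arrays. Whether the class I genes and the interferon genes moved for a shared reason was not tested.

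Class II presentation, known from professional antigen-presenting cells, had 1 of 7 genes called, where 4.52% of all genes were. Cd74, the invariant chain, read 7.73, 7.47, 7.77 and 7.67 in the vector arrays, 8.18 and 8.15 in DaxxA and 8.02 and 8.01 in DaxxB. It rose by 0.43 (SE 0.078, 1.35-fold, limma adjusted p = 0.018), with DaxxA above DaxxB. H2-Aa gave -0.18, H2-Oa 0.11 and H2-DMa 0.13, none of which passed, and with 7 arrays H2-Aa gave 0.01 and H2-DMa -0.11.

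The genes most like Tap1 and H2-M3 in their profile were sought over 12425 genes, by Pearson correlation over the 8 arrays. These arrays share 2 conditions, so the measure follows that difference first and is only a ranking. For Tap1 they were Sod3, Mfap2, Cdk14, Zfp503 and Ssbp2, all lower with Daxx by 0.29 to 1.11 on the log2 scale. For H2-M3 they were Smpdl3b, Surf2, Abcc1, Sh3gl3 and Ttll5, with differences from 0.25 to 0.32, of which Sh3gl3 alone was called with 8 arrays (limma adjusted p = 0.0345). Their coefficients were from 0.982 to 0.989 for Tap1 and from 0.978 to 0.992 for H2-M3.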

How the data were processed

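Per the labels' protocols, RNA from each of the 8 samples was labelled with biotin and read on Affymetrix mouse arrays. The deposited values are log2 signals, for which the submitters' processing notes name Affymetrix Expression Console and RMA, without a version or build. RMA compresses differences near background, and the number of arrays limits precision. Of the 35556 probe sets, 21789 carry 1 gene symbol in the platform annotation, 1621 carry more and 12146 carry none. The probe set with the highest mean over the arrays stood for each symbol (19938 genes). All 10 members matched the GRCm38.p6 gene table by gene number.

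Tests used limma 3.58.1 (R 4.3.3; linear model with empirical Bayes moderation) over all genes, with Benjamini-Hochberg adjustment and calls below 0.05. Daxx against vector was fitted with 2 conditions. DaxxA, DaxxB and their difference were fitted with 3 groups sharing a spread. Errors and 95% intervals are those of limma. The procedure was tested on simulated data. Promoters were searched with Python 3.11.15 on both strands.

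The members and lists were chosen with earlier results of these data known. The named genes were the members, up to 4 genes with the lowest adjusted p from each group of the pathway list, Daxx, the interferon genes Ifit1, Irf1, Irf7 and Irf9, and the 5 genes most like the leading member in each direction among those with a mean of at least 6. Markers, chromosomal neighbours, single Nlrc5 probe sets, H2-Q4, Stat2 and Rfx5 are named besides, the last 3 after their values were seen. None of the 5 endothelial and 5 epithelial markers was called, or had an unadjusted p below 0.05 in limma. Alternatives were each array left out, a replicate block, 2 further scalings, array weights, another prior, a filter on low values and other uses of the probe sets.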

Additional observations from a re-analysis of the deposited data

Results flagged for a closer look

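Each member was examined for an array far from the others, separately over the 4 vector and the 4 Daxx arrays, 20 groups in all. In 2 of them the outermost array stood apart from the other 3 by more than the share of the group's range that Dixon's 95% critical value allows, and chance gives about 1 in 20. For Psmb9, DaxxB replicate 1 read 7.78 where the other Daxx arrays read 7.57 to 7.59, a gap of 0.872 of the range. For Erap1, DaxxB replicate 2 read 6.99 where the others read 7.19 to 7.21, a gap of 0.904 of the range. The cause was not tested for either. Vector replicate 2, which stood apart across the whole array, was not beyond that limit for any member.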

How the results depend on the processing

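The members' differences from vector and the counts of calls were recomputed under each listed alternative, 1 choice at a time. DaxxA against DaxxB for single members, single pathway genes, neighbours, Nlrc5 probe sets and the counts of markers were recomputed without vector replicate 2 alone. Values of single markers, Ifit1 and the genes most like Tap1 and H2-M3 are given under none. Tap1 stayed lower and called whichever array was left out; the other called members each lost their call without at least 5 of the 8 arrays, as given beside them. Leaving out 1 array gave from 1 to 5 members called for Daxx against vector, from 0 to 5 for DaxxA, from 0 to 7 for DaxxB, from 0 to 1 for their difference and from 2 to 13 of the pathway list. In each case the highest count came without vector replicate 2. Over all genes 446 to 2558 were called for Daxx against vector. Without vector replicate 2 the all-gene counts were 2246 for DaxxA, 4083 for DaxxB and 428 for their difference.

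The labels do not say that a replicate number marks a shared culture or day, so the numbers were not taken as pairs. The deviations of same-numbered arrays correlated by 0.0238 to 0.162. This cannot settle the matter, since the 2 arrays of DaxxA, or of DaxxB, deviate from their mean by equal and opposite amounts. Only the vector group has replicates 3 and 4. The replicate block therefore set the Daxx arrays against vector replicates 1 and 2 alone, of which replicate 2 stood apart. With the block 0 members were called for Daxx, where 162 of all genes were. The counts were 0 for DaxxA, 0 for DaxxB and 0 of the pathway list. Lost calls and changed signs there cannot be read as an effect of pairing. Under the replicate block uncalled values changed sign for Tapbp (Daxx 0.051, DaxxA 0.0905, DaxxB 0.011), Psmb10 (Daxx 0.042), Psmb9 (DaxxB 0.040) and Erap1 (DaxxA 0.0052).

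All-gene counts in this paragraph are for Daxx against vector. With array weights 5 members were called for Daxx, where 3231 of all genes were. The counts were 6 for DaxxA, 7 for DaxxB, 1 for their difference and 16 of the pathway list. After scaling to a common median 3 members were called for Daxx, where 715 of all genes were. Tap2 then missed the threshold for Daxx (limma adjusted p = 0.0568). The counts were 0 for DaxxA, 1 for DaxxB and 3 of the pathway list. With all probe sets adjusted together 1 member was called for Daxx (Tap1), where 545 of all genes were. The counts were 1 for DaxxA, 0 for DaxxB and 3 of the pathway list. The cause was not tested. Other uncalled values changed sign for Psmb10 in DaxxB with array weights (-0.029) and when 1 array was left out. Those ranges were -0.12 to 0.063 for Psmb10 in Daxx, -0.288 to 0.022 in DaxxA and -0.012 to 0.136 in DaxxB, -0.141 to 0.047 for Psmb9 in DaxxB, and -0.173 to 0.0079 for Nlrc5 in DaxxB. The signal of the probe set used for each member was well over that of most olfactory receptor genes. For Nlrc5 that is the highest of 19, and the lowest averaged 4.86 with vector and 4.82 with Daxx. How far background, the spread and number of arrays, and vector replicate 2 each limit these comparisons was not tested.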
